A study of Mus musculus with 9 samples.

Results

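The 10 genes described here, Fabp1, Muc13, Sis, Lgals4, Vil1, Alpi, Fabp2, Cdx2, Mgam and Dmbt1, are genes of the intestinal epithelium, and their reads were counted in mouse cerebellum. They were picked by symbol from the 37816 genes of the count table because earlier results of these data showed them to be high in 1 group, the 15Q mice. Their difference between 15Q and the other mice is therefore what chose them, and it is given below as a description, without a test.

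The study sequenced cerebellar RNA of 18-month-old mice that model spinocerebellar ataxia type 3, a polyglutamine disease caused by an expanded CAG repeat in ATXN3. There were 3 groups of 3 mice, and each library came from 1 mouse. The 15Q mice carried a YAC transgene with human ATXN3 of normal repeat length (15 repeats) and were the control group. The 84Q mice carried the same kind of transgene with 84 repeats, and the 84Q+IGF-1 mice carried the 84-repeat transgene and were injected with insulin-like growth factor 1 weekly from month 9, at 50 mg/kg. The labels call the 15Q and 84Q mice untreated, whereas the study's methods describe injections of buffered saline. All mice carried a human ATXN3 transgene and no mouse without one was analysed here, so a difference between 15Q and 84Q is also a difference between separate transgenic lines, and the line and the repeat length cannot be told apart.

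The epithelium of the small intestine is a single layer of absorptive enterocytes, mucus-secreting goblet cells, Paneth cells and hormone cells that is renewed from stem cells in the crypts. Enterocytes carry a brush border of microvilli with digestive enzymes on its surface, and they take up sugars, peptides and fats. The caudal-type homeobox factor CDX2 keeps intestinal identity, together with HNF4, HNF1 and GATA factors, and the neurons and glia of the cerebellum are not known for using this programme.

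CDX factors bind a short AT-rich motif near many of these genes, so the bases just upstream of the start of the gene are shown for the 4 genes whose windows held that motif. The sequences are from RefSeq (GRCm38.p6), are written 5′ to 3′ on the strand of the gene, and end at the base before the gene. Capitals mark matches to TTTATNG on either strand, and in Alpi also a match to the HNF4 motif CAAAGTCC. The windows lie at chr6:71199629-71199826 (Fabp1, plus strand), chr3:72967864-72968113 (Sis, minus strand), chr3:122894822-122895071 (Fabp2, plus strand) and chr1:87101607-87101856 (Alpi, minus strand).
Fabp1: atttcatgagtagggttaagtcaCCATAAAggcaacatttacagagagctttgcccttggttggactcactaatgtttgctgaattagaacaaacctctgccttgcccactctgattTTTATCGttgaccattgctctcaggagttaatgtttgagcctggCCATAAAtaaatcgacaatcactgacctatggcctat
Sis: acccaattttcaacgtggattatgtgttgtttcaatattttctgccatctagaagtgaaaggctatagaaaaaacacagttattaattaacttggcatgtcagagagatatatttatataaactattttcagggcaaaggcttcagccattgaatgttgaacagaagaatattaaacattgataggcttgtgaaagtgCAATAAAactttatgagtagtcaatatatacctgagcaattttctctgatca
Fabp2: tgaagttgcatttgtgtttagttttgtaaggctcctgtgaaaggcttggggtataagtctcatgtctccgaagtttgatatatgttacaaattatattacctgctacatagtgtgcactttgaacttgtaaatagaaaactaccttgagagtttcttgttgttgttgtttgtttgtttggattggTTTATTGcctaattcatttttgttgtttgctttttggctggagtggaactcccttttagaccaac
Alpi: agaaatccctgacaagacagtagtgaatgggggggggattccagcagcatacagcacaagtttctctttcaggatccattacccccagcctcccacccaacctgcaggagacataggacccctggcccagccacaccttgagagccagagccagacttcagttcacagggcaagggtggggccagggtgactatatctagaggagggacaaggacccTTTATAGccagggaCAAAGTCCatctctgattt

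Promoter windows were found for 9 of the 10 genes, with 10 windows in all, since Muc13 had 2 start sites. The missing one was Dmbt1. The motif TTTATNG stood in 4 of the 10 windows, those of Fabp1 (3 matches), Sis, Fabp2 and Alpi, and in 9.81% of the 32851 windows of all genes. The HNF4 motif CAAAGTCC stood in 2, those of Alpi and Muc13, against 1.20% of all windows. The windows searched end before the RefSeq start, which for Fabp1, Vil1, Cdx2 and the downstream start site of Muc13 lies inside the annotated gene. The Muc13 match lay in the window of that downstream start site, inside the annotated gene, so that it is not upstream of Muc13 as a whole. The matches of the other members lay upstream. The GATA motif AGATAA stood in 1, that of Mgam, against 9.99%, and the consensus motif of HNF1 stood in 0 against 0.0609%. Both strands were searched. The letters of TTTATNG overlap those of the TATA box, and the Alpi match, TTTATAG, lay 33 to 27 bases before the start. A match describes these letters in this window and is not a binding site.

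Library totals ranged from 17482654 to 58269196 counts, and the medians of the groups were 40249019 (15Q), 22808219 (84Q) and 26914560 (84Q+IGF-1). Levels are given as CPM (counts as a rate of the library total, which was scaled by TMM) or, between genes, as TPM (counts divided by exon length and scaled to 1 common total per library). Where a group had 0 counts of a gene, its sum over the group was set to 3 counts and the fold is a bound, written as at least that many fold. Where it had 1 to 3 counts, the ratio of the counts is given with its counting interval, and such ratios and bounds cannot be ranked against each other. In a single library 3 counts correspond to 0.0513 to 0.171 CPM. Markers of the cerebellum were high in all 9 libraries. The summed level of 6 Purkinje cell genes was 6050 to 6786 CPM, that of 6 granule cell genes was 4727 to 5485 CPM, and that of 6 genes of Bergmann glia and astrocytes was 1366 to 1946 CPM. No gene of these lists was called in any comparison by edgeR. The glial list held 1 gene that differed from its other members. Slc1a3, a glutamate transporter, had 1349, 709 and 669 CPM in 15Q replicates 1, 2 and 3 and 1100 to 1244 CPM in the other 6 libraries, whereas the remaining 5 genes summed to 597, 694 and 698 CPM in 15Q and 518 to 687 CPM in the others.

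The 10 genes summed to 1006, 2301 and 3606 counts in the 15Q libraries of replicates 1, 2 and 3. The 84Q libraries had 122, 136 and 87, and the 84Q+IGF-1 libraries had 130, 152 and 133. Scaled to depth, the sum was 52.1 ± 12.9 CPM (SD, n = 3) in 15Q, 5.05 ± 0.888 CPM (SD, n = 3) in 84Q and 5.29 ± 0.635 CPM (SD, n = 3) in 84Q+IGF-1. Lgals4 and Vil1 made up nearly all of the counts in the latter groups. The other 8 genes together had 764, 1859 and 2985 counts in 15Q, against 6, 6 and 1 in 84Q and 7, 6 and 8 in the treated 84Q mice. 15Q replicate 1, with the lowest 15Q sum, had 26925001 counts in total, within the range of the libraries outside 15Q (17482654 to 29089855), and replicates 2 and 3 had more (40249019 and 58269196). In bulk tissue, more cells of a type and more RNA per cell cannot be told apart.

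**Figure D1:**
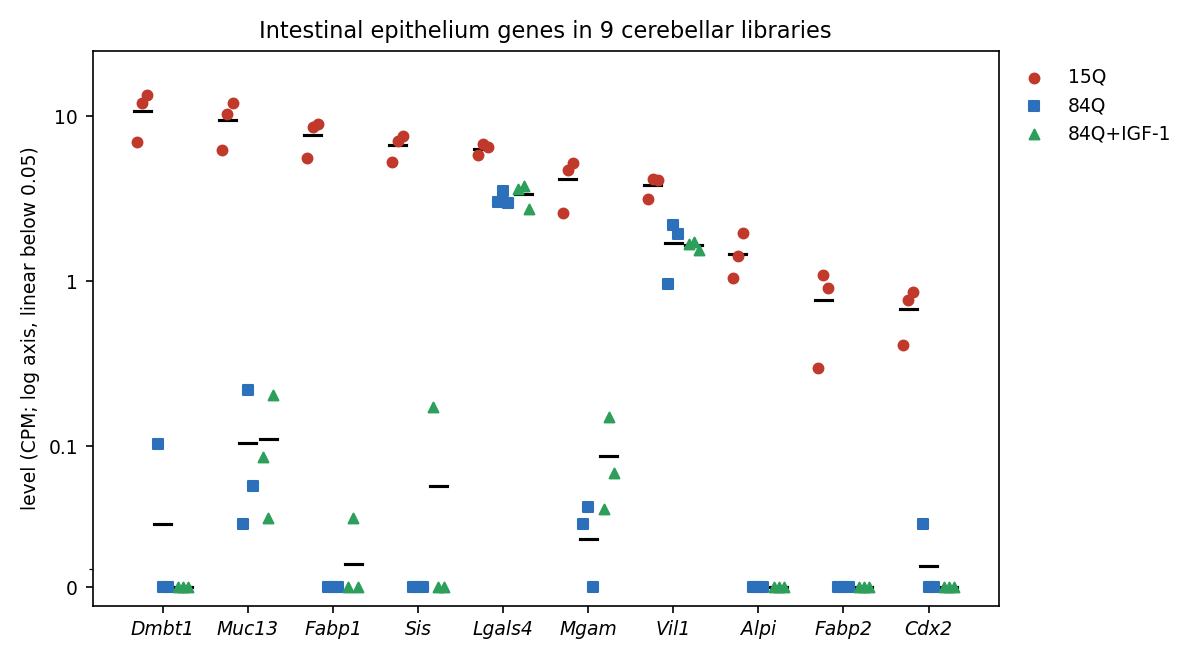
Level of each gene in each of the 9 libraries, in CPM on a log axis that is linear below 0.05, with 1 symbol per library and a black bar at the mean of the 3 libraries of a group. All 15Q libraries lie above the other 6 for each gene, and only Lgals4 and Vil1 reach 0.966 CPM or more outside 15Q.

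The fatty acid binding proteins carry fatty acids inside enterocytes. Fabp1, the liver and proximal intestine form (ENSMUSG00000054422, chr6:71199827-71205023, plus strand), had 151, 345 and 527 counts in 15Q, 0 in each 84Q library, and 0, 1 and 0 in 84Q+IGF-1. Fabp2, the intestinal form (ENSMUSG00000023057, chr3:122895072-122899506, plus strand), had 8, 44 and 53 counts in 15Q and 0 in each of the other 6 libraries. For neither gene did the groups overlap. Against 84Q, pooled over libraries, Fabp1 was at least 188-fold higher and Fabp2 at least 19.3-fold higher in 15Q, where the bound uses the floor of 3 counts over the group. Fabp2 did not pass the filter on low counts, and the other 9 genes did. A gene on the opposite strand that overlaps Fabp2, 4933405D12Rik, had 9 counts in those 6 libraries.

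The disaccharidases of the brush border split dietary sugars. Sis, sucrase-isomaltase (ENSMUSG00000027790, chr3:72888557-72967863, minus strand), had 142, 285 and 446 counts in 15Q, 0 in each 84Q library, and 4, 0 and 0 in 84Q+IGF-1. Mgam, maltase-glucoamylase (ENSMUSG00000068587, chr6:40628831-40769123, plus strand), had 70, 191 and 305 counts in 15Q, 1, 1 and 0 in 84Q, and 1, 4 and 2 in 84Q+IGF-1. Every 15Q library was above the others for both genes. Sis was at least 160-fold higher in 15Q than in 84Q, and Mgam was 156-fold higher, with a 95% exact interval of 43.0 to 1292 that covers counting error only. Gaa, the lysosomal alpha-glucosidase that all cells use and a relative of both, had 245 ± 19.4 CPM in 15Q, 248 ± 24.8 CPM in 84Q and 245 ± 12.5 CPM in 84Q+IGF-1 (SD, n = 3 each), and was not called.

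Alpi, intestinal alkaline phosphatase (ENSMUSG00000079440, chr1:87098002-87101606, minus strand), sits on the brush border and removes phosphate from bacterial products. It had 28, 57 and 114 counts in 15Q and 0 in each of the other 6 libraries, so that it was at least 36.6-fold higher in 15Q than in 84Q. Of its 31-base words, 7.07% also occurred in another gene, and 3.47% in Akp3, a neighbouring phosphatase gene, so that some reads of these genes could have been placed on either. Alpl, the form of bone, liver and kidney that the brain also uses, had 12.3 ± 2.29 CPM in 15Q, 12.8 ± 3.51 CPM in 84Q and 9.67 ± 0.461 CPM in 84Q+IGF-1 (SD, n = 3 each), and was not called.

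Vil1, villin (ENSMUSG00000026175, chr1:74409376-74435559, plus strand), bundles the actin filaments of microvilli. It had 85, 169 and 239 counts in 15Q, 28, 50 and 34 in 84Q, and 39, 46 and 45 in 84Q+IGF-1. Scaled to depth, these were 3.16, 4.20 and 4.09 CPM in 15Q against 0.966 to 2.20 CPM in the other 6 libraries, without overlap. The ratio of 15Q to 84Q was 2.43, with a 95% exact interval of 1.97 to 3.01 that covers counting error only and not the spread between mice. Usp37, a gene on the opposite strand that overlaps Vil1, had 4834 counts in the other 6 libraries. The strand setting of the counting is not given in the sources used here, and the part of Usp37 in the Vil1 counts was not tested. Vill, a villin-like relative, had 1.01 ± 0.461 CPM in 15Q, 0.662 ± 0.189 CPM in 84Q and 0.314 ± 0.0598 CPM in 84Q+IGF-1 (SD, n = 3 each), and was called lower in 84Q+IGF-1 than in 15Q (log2 fold change −1.72, SE 0.41, adjusted p = 0.0584 by edgeR).

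Lgals4, galectin-4 (ENSMUSG00000053964, chr7:28833854-28841708, plus strand), is a sugar-binding lectin that organises glycoproteins at the surface of enterocytes. It had 157, 273 and 382 counts in 15Q, 88, 80 and 52 in 84Q, and 84, 100 and 80 in 84Q+IGF-1. That was 5.84, 6.78 and 6.53 CPM in 15Q, 3.04, 3.52 and 2.96 CPM in 84Q, and 3.60, 3.77 and 2.74 CPM in 84Q+IGF-1. It was the member with the highest level outside 15Q. The ratio of 15Q to 84Q, 2.04 (95% exact interval 1.75 to 2.37, counting error only), was the lowest of the 10. None of its 31-base words occurred in another gene. The galectins that glia and vessels use, Lgals1, Lgals3 and Lgals9, had 15Q means of 9.35, 4.49 and 5.70 CPM, and none was called in a comparison.

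Muc13 and Dmbt1 line the luminal surface. Muc13, a transmembrane mucin of enterocytes and goblet cells (ENSMUSG00000022824, chr16:33794037-33819934, plus strand), had 167, 418 and 704 counts in 15Q, 1, 5 and 1 in 84Q, and 2, 1 and 6 in 84Q+IGF-1. Dmbt1, a secreted scavenger receptor protein that binds bacteria (ENSMUSG00000047517, chr7:131032053-131121630, plus strand), had 187, 488 and 786 counts in 15Q, 3, 0 and 0 in 84Q, with 0 in each 84Q+IGF-1 library. The groups were far apart for both. The ratio of 15Q to 84Q was 102 for Muc13 (95% exact interval 49.1 to 253) and 269 for Dmbt1 (91.7 to 1304), with intervals that cover counting error only. Dmbt1 overlaps Fgfr2 on the opposite strand, and Fgfr2 had 11419 counts in the other 6 libraries, where Dmbt1 had 3. None of the 31-base words of Dmbt1 occurred in another gene. Gm15657, which shares 5.98% of the 31-base words of Muc13 on the opposite strand, had 0 counts in those 6 libraries.

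Cdx2, the homeobox factor of intestinal identity (ENSMUSG00000029646, chr5:147300805-147307270, minus strand), had 11, 31 and 50 counts in 15Q, 1, 0 and 0 in 84Q, with 0 in each 84Q+IGF-1 library. Its level, 0.678 ± 0.237 CPM (SD, n = 3) in 15Q, was the lowest of the 10 genes. The ratio of 15Q to 84Q was 50.7, with a 95% exact interval of 8.88 to 2025 that reflects the single count in 84Q and covers counting error only. Of the 2 other caudal-type genes, Cdx1 had 6, 8 and 8 counts in 15Q and at most 2 in any other library, and Cdx4 had 1 count in all 9 libraries.

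Of the 10 genes, 5 (Fabp1, Alpi, Fabp2, Cdx2 and Dmbt1) had at least 4 counts in each 15Q library and at most 3 in each other library, as did 0.910% of the 37816 genes (344 genes), and none of the 37816 genes had the reverse. Muc13, Sis and Mgam missed it through 1 or more libraries with 4 to 6 counts. Every 15Q library lay above the other 6 for all 10 genes and for 5.09% of the 37816 genes. Since the 15Q values chose the 10 genes, nothing is read from these counts.

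The order of the genes was compared per exon length in the 15Q libraries. Fabp1 was highest, at 40.8, 62.4 and 66.9 TPM, and did not overlap the next gene. Muc13 (12.7 ± 4.12 TPM) and Lgals4 (11.2 ± 0.898 TPM) followed with overlapping ranges, and Lgals4 lay above Dmbt1 (6.23 ± 2.02 TPM) in each library (SD, n = 3). From Dmbt1 through Vil1 (4.35 TPM), Sis (3.62 TPM), Fabp2 (3.22 TPM), Alpi (2.55 TPM) and Mgam (1.95 TPM) to Cdx2 (1.22 TPM), each gene overlapped its neighbour. Outside 15Q, the order was another one, with Lgals4 and Vil1 at the top.

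**Figure D2:**
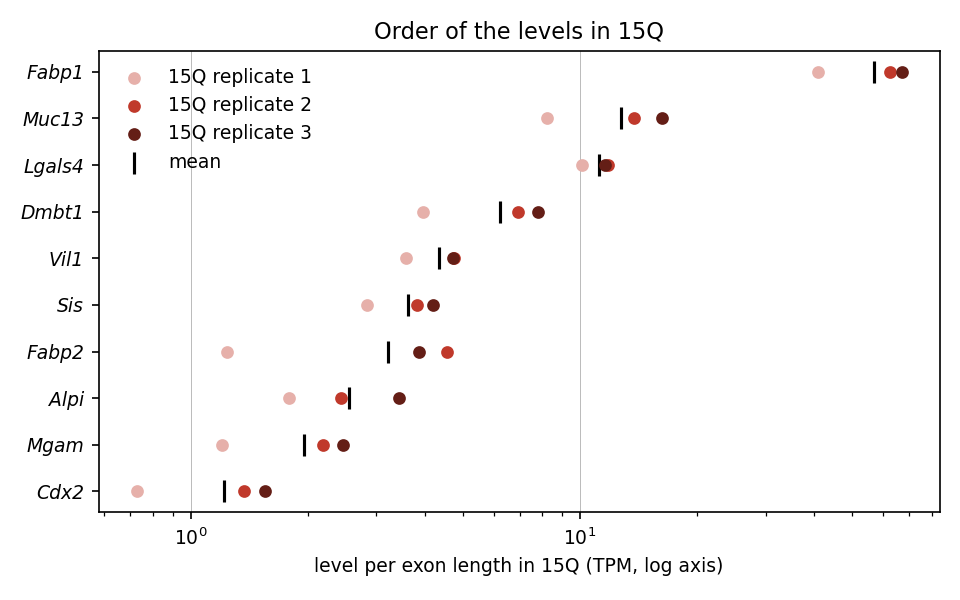
Level per exon length of the 10 genes in the 3 15Q libraries, in TPM on a log axis, with 1 point per library and a bar at the mean. Fabp1 lies apart from the rest at 40.8 to 66.9 TPM, and the ranges of most neighbours further down overlap.

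Within 15Q the shares of the members in their summed counts were compared between mice, and for 9 of the 10 genes the 95% Wilson intervals of the 3 libraries overlapped. Fabp1 took 15.0%, 15.0% and 14.6% of the summed counts in replicates 1, 2 and 3 (intervals 12.9 to 17.4%, 13.6 to 16.5% and 13.5 to 15.8%). Dmbt1 took 18.6%, 21.2% and 21.8%, Sis 14.1%, 12.4% and 12.4%, and Cdx2 1.09%, 1.35% and 1.39%. Fabp2 had the largest relative difference, at 0.795% (0.403 to 1.56%), 1.91% (1.43 to 2.56%) and 1.47% (1.13 to 1.92%), from 8, 44 and 53 counts. The share of Lgals4 was 15.6% (13.5 to 18.0%) in replicate 1, 11.9% (10.6 to 13.2%) in replicate 2 and 10.6% (9.63 to 11.6%) in replicate 3, and its interval in replicate 1 did not overlap the others. Intervals cover counting error only.

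The levels in CPM were lowest in replicate 1 for all 10 genes. Replicate 2 was above replicate 1 by a median of 1.60 times over the genes (range 1.16 for Lgals4 to 3.67 for Fabp2), and replicate 3 by a median of 1.90 times (1.12 to 3.05). Between replicates 3 and 2 the median ratio was 1.09 (0.830 to 1.38). Lgals4 and Vil1 had the smallest steps, and both also had counts in the other groups. Their 15Q levels above the mean of the other 6 libraries were 2.57, 3.51 and 3.26 CPM for Lgals4 and 1.49, 2.52 and 2.41 CPM for Vil1, which is a step from replicate 1 to 2 of 1.37 times for Lgals4 and 1.70 times for Vil1.

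In the comparison of 84Q+IGF-1 with 84Q, which the choice of the genes did not use, Lgals4 and Vil1 had enough counts for a test and neither was called by edgeR or by DESeq2. The other 7 tested members had 0 to 16 counts over the 6 libraries and passed the filter through 15Q alone, so that the missing call says nothing about them. Lgals4 had 3.37 ± 0.550 CPM in 84Q+IGF-1 and 3.17 ± 0.300 CPM in 84Q (SD, n = 3 each), a log2 fold change of 0.08 with an SE of 0.16 (adjusted p = 0.991, edgeR). Vil1 had 1.65 ± 0.0972 and 1.70 ± 0.649 CPM, a log2 fold change of −0.02 with an SE of 0.28 (adjusted p = 0.999). The 8 others summed to 21 counts in 84Q+IGF-1 and 13 in 84Q, and a change in them was not detectable at this depth. In this comparison edgeR called 0 of the 19353 genes tested (0%), with 905 genes (4.68%) at an unadjusted p under 0.05, and DESeq2 called 5 lower and 1 higher.

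A further 121 genes of the intestine, in 10 lists by cell type and function, were compared in the same fit. Of these, 112 had counts and 57 passed the filter. By edgeR, 26 of the 57 were called lower in 84Q than in 15Q, against 1.90% of the 19353 genes tested, and 27 were called lower in 84Q+IGF-1 than in 15Q, against 2.06%. Of the 57, 20 passed the filter through the 15Q libraries alone and could hardly be called in any direction but lower, so that the share called among tested genes is not read as a result. These 20 held 18 and 17 of the calls, and the 36 genes that would have passed through the other 6 libraries held 8 and 10. None was called higher, against 0.238% and 0.186% of all genes tested. Over the 112 with counts, every 15Q library was above the other 6 for 63 genes, against 5.09% of the 37816 genes. These lists were chosen with the 15Q pattern of the members known, and both comparisons share the 15Q libraries. Without 15Q replicate 3 the counts called lower were 15 in 84Q and 14 in 84Q+IGF-1, beside 0.862% and 1.04% of all genes tested. Without 15Q replicate 2 they were 17 and 18, beside 0.891% and 1.17%. Without 84Q replicate 1, 2 or 3 the count in 84Q+IGF-1 was 42, 42 or 41, beside 2.53%, 2.78% or 2.93%. The calls over all genes thus moved in the same direction as those of the intestine lists.

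The transcription factors and the epithelial adhesion genes held most of the calls. Among 8 tested factors, 6 were called lower in 84Q and 4 in 84Q+IGF-1. Hnf4a, a nuclear receptor of liver and gut epithelium, had 44, 142 and 189 counts in 15Q, 0 in each 84Q library, and 0, 0 and 1 in 84Q+IGF-1. Klf5, a factor of dividing crypt cells, had 4.72 ± 1.27 CPM in 15Q against 1.20 CPM in 84Q and 0.923 CPM in 84Q+IGF-1 (log2 fold changes −1.89 and −2.35, adjusted p = 0.0664 and 0.0325 by edgeR), and Elf3, an epithelial ETS factor, had 1.47 ± 0.242, 0.454 and 0.823 CPM and was called lower in 84Q against 15Q. Among 12 tested adhesion and keratin genes, 9 and 10 were called lower. Epcam, an epithelial adhesion molecule, had 84, 189 and 340 counts in 15Q and 1 to 14 in the other libraries, and Krt8, a keratin of simple epithelia, had 97, 198 and 339 against 1 to 31. Cdh1, E-cadherin, was less far apart, at 19.4 ± 3.73, 11.0 and 12.5 CPM, and Ceacam1 was not called, at 7.12, 7.62 and 7.26 CPM.

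Enterocyte genes of the same functions as the members were split between called and not called. In the brush border list 4 of 12 tested genes were called lower in each comparison, among them the peptidases Anpep (9.65 ± 2.05 CPM in 15Q, 5.11 CPM in 84Q, 5.33 CPM in 84Q+IGF-1) and Dpp4 (4.04 ± 1.11, 2.02 and 1.62 CPM). The glucose transporter Slc5a1 had 8.93, 9.01 and 9.95 CPM and the anion exchanger Slc26a6 9.06, 9.71 and 10.2 CPM, and neither was called. Of 8 tested microvillus genes, 4 were called lower in each comparison. Myo7b, a myosin of the links between microvilli, had 23, 65 and 95 counts in 15Q and 0 to 2 in the others, Cdhr5, a protocadherin of those links, had 13, 35 and 61 against 0 to 2, and its partner Cdhr2 had 1.73 ± 0.101 CPM in 15Q against 0.408 and 0.386 CPM. The actin bundlers Espn (8.88, 10.1 and 9.33 CPM) and Pls1 (18.0, 15.0 and 13.6 CPM) were not called.

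Of 5 tested genes of fat uptake, 1 was called, Apob, the protein of chylomicrons and liver lipoproteins, with 44, 86 and 147 counts in 15Q and 0, 0, 1, 0, 0 and 0 in the other 6. Mttp, which loads lipid on Apob, had 15.4, 13.6 and 12.1 CPM, and the sterol transporter Npc1l1 had 4.19, 3.26 and 3.43 CPM, and neither was called. Among goblet cell genes 1 of 4 tested was called lower in 84Q and 2 in 84Q+IGF-1. Fcgbp, a mucus protein, had 105, 283 and 396 counts in 15Q and 0 to 7 in the others, and Muc2, the gel-forming mucin, had 1.43 ± 0.174 CPM in 15Q, 0.575 CPM in 84Q and 0.477 CPM in 84Q+IGF-1, called in 84Q+IGF-1. Sytl2 was not called, at 22.7, 19.4 and 18.3 CPM.

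Paneth cell genes were at low counts. Lyz1, a lysozyme, had 12, 32 and 60 counts in 15Q and 2 to 9 in the others and was called lower in both comparisons, and Itln1, a lectin, had 11, 13 and 25 against 0 in each of the other 6. Of the 4 tested enteroendocrine genes none was called, and Chga (124, 132 and 126 CPM) and Cck (26.4, 28.8 and 27.0 CPM) are genes that neurons also use. Of 3 tested crypt stem cell genes, Lgr5 had 19.5, 19.1 and 20.6 CPM and Olfm4 2.36, 2.07 and 1.91 CPM and neither was called, and Smoc2 was called lower in 84Q+IGF-1 against 15Q (1.79, 1.66 and 0.532 CPM). No colon gene passed the filter. Slc26a3, the chloride exchanger of the colon, had 10, 19 and 34 counts in 15Q and 0 to 2 in the others, and Car1 had 1 count in each 15Q library, 9 in 84Q replicate 3 and 0 in the other 5.

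**Figure D3:**
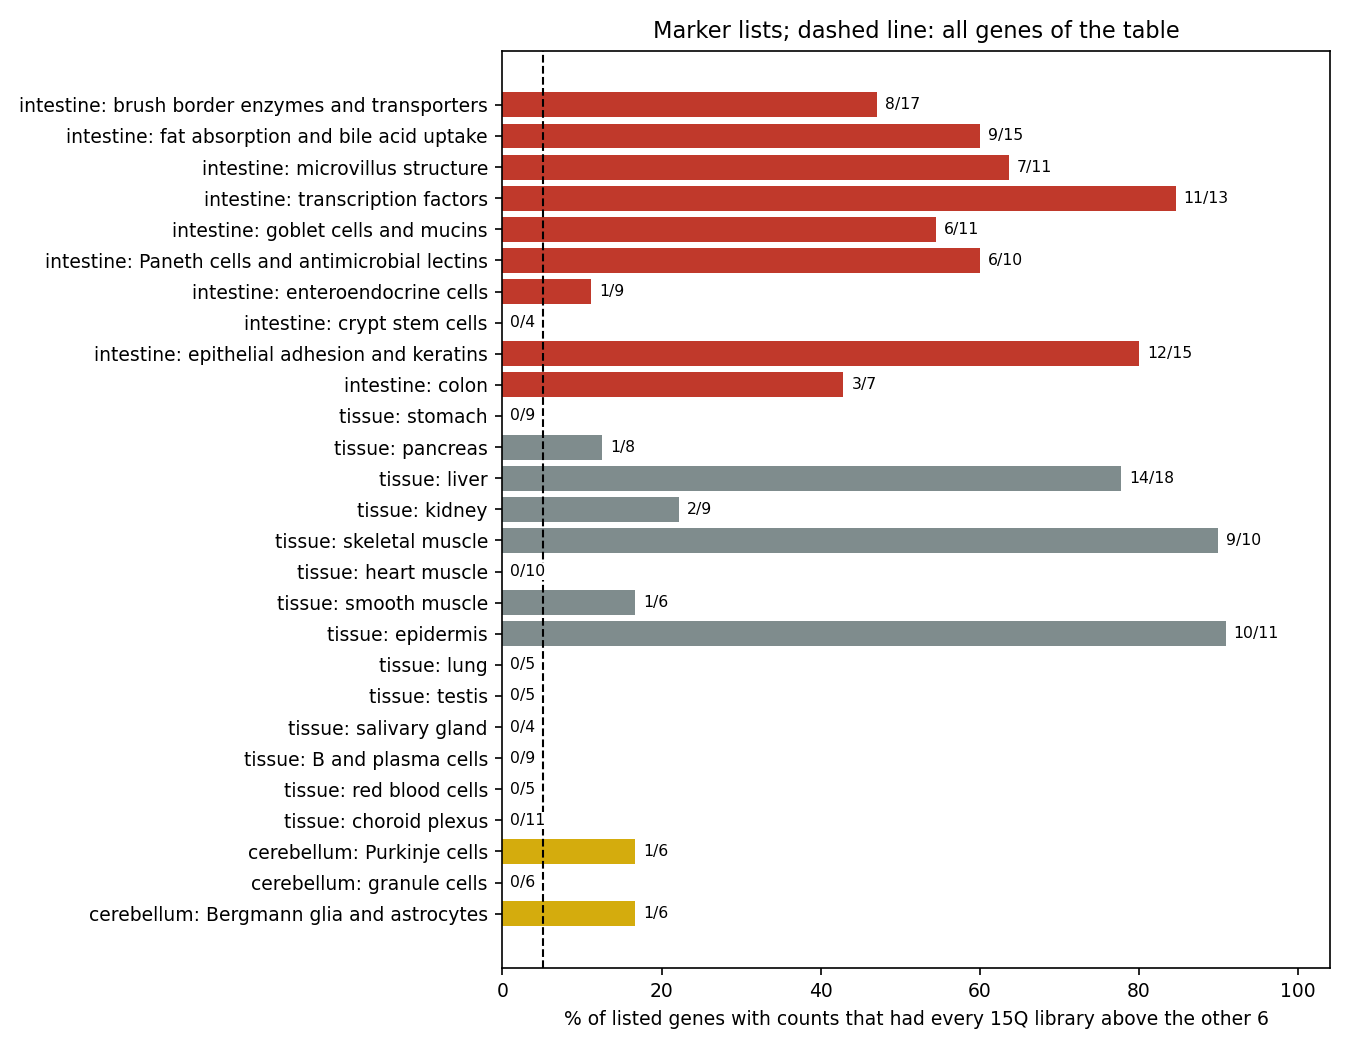
Share of the genes of each marker list, among those with counts, for which every 15Q library was above the other 6 libraries, in percent, with the counts beside each bar. Red bars are intestine lists without the 10 members, grey bars are other tissues and yellow bars are cell types of the cerebellum, and the dashed line is the 5.09% of all genes. The longest bars are those of epidermis (10 of 11) and skeletal muscle (9 of 10), and liver (14 of 18) lies below the transcription factors (11 of 13) and the epithelial adhesion genes (12 of 15).

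The genes of other organs were counted by the same rule. Of 138 genes in 14 lists, 120 had counts and 70 passed the filter, and 27 were called lower in 84Q and again 27 in 84Q+IGF-1. Of the 70, 19 passed the filter through 15Q alone, and they held 18 of the calls in each comparison. The shares of all genes tested were 1.90% and 2.06%, and as for the intestine lists the share called among tested genes is not read as a result. These calls lay in liver (10 of 12 tested in each comparison), skeletal muscle (8 of 9 in each) and epidermis (7 and 8 of 10), with 1 in kidney in each and 1 in smooth muscle in 84Q. Stomach, pancreas, heart, lung, testis, salivary gland, B and plasma cells, red blood cells and choroid plexus had 0 called lower in either comparison by edgeR, though stomach, lung, testis and salivary gland had 1 gene tested each and pancreas 2.

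In liver, Cps1, a urea cycle enzyme also found in enterocytes, had 11.0 ± 3.35 CPM in 15Q against 1.75 CPM in 84Q and 1.61 CPM in 84Q+IGF-1. In muscle, the fast myosin Myh4 had 88, 206 and 324 counts in 15Q and at most 1 in any other library, and skeletal actin Acta1 had 4.62 ± 0.725 CPM against 1.16 and 1.15 CPM. In epidermis, the basal keratin Krt14 had 96, 315 and 466 counts in 15Q and 2 to 15 in the others, and Krt10, a keratin of upper layers, 8.08 ± 1.46 CPM against 5.01 and 4.54 CPM. The kidney transporter Slc22a6, which the meninges also use, had 11.6 ± 2.94 CPM against 6.17 and 5.97 CPM, and Myh11 of smooth muscle 23.4 ± 1.77 CPM against 15.2 and 16.5 CPM.

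The calls of the named genes differed in how far they rested on single libraries. Hnf4a, Apob, Myo7b, Cdhr5, Fcgbp, Epcam, Krt8, Cps1, Myh4, Acta1 and Krt14 were called lower in both comparisons whichever library was left out. All of these but Cps1 and Acta1 passed the filter through 15Q alone, so that they could hardly be called in any direction but lower. In 84Q, the calls of Anpep, Dpp4, Cdhr2, Klf5, Elf3, Lyz1, Krt10 and Slc22a6 were lost without 15Q replicate 2 and also without 15Q replicate 3, and that of Myh11 without 15Q replicate 1 or 3. In 84Q+IGF-1, the calls of Anpep, Dpp4, Cdhr2, Klf5, Muc2, Lyz1, Cdh1, Smoc2 and Vill were lost without 15Q replicate 2 and also without 15Q replicate 3, that of Krt10 without replicate 2 and that of Slc22a6 without replicate 3. Except for Anpep in 84Q and Krt10 in 84Q+IGF-1, these calls were also lost without at least 1 further library of 84Q or 84Q+IGF-1.

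Between the 15Q mice, the members' sum was lowest in replicate 1. The summed level of the 8 members other than Lgals4 and Vil1 was 28.4, 46.2 and 51.1 CPM in replicates 1, 2 and 3, so that replicate 2 was 1.63 times and replicate 3 was 1.80 times replicate 1. The genes found in 15Q alone, by the 4-count and 3-count rule above, gave 1.75 and 1.84 times for 25 other intestine genes, 1.81 and 2.18 times for 6 liver genes, 1.51 and 1.65 times for 3 muscle genes, 1.84 and 1.72 times for 4 epidermis genes, and 1.55 and 1.65 times for all 339 such genes without the members. All of these sums were lowest in replicate 1, and among them that of epidermis alone had replicate 2 above replicate 3. The steps of whole lists differed from those of their 15Q-only genes. All other intestine genes summed to 351, 404 and 405 CPM in replicates 1, 2 and 3. The whole liver list gave 37.9, 56.8 and 63.5 CPM, skeletal muscle 16.8, 24.3 and 25.6 CPM, and epidermis 38.5, 52.1 and 53.5 CPM. The whole lists of kidney (13.8, 13.1 and 18.7 CPM) and smooth muscle (55.8, 49.8 and 56.8 CPM) were lowest in replicate 2.

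The sums of granule cells, choroid plexus and blood cells came in other orders, and Purkinje cells in replicates 2 and 3 were at 1.06 times replicate 1. The glial sum was highest in replicate 1 with Slc1a3 and lowest there without it. The 11 choroid plexus genes summed to 518, 46.3 and 505 CPM in 15Q, to 45.4, 1066 and 29.9 CPM in 84Q and to 29.0, 31.4 and 70.1 CPM in 84Q+IGF-1. The 5 genes of red blood cells summed to 47.4, 211 and 32.3 CPM in 15Q, and the 9 genes of B and plasma cells to 6.77, 6.58 and 90.5 CPM, with 4.93 to 9.86 CPM in the other 6 libraries. Most of the last 15Q value came from the immunoglobulin genes Ighm (65.1 CPM) and Igkc (21.7 CPM), and the other 7 genes summed to 1.23, 0.819 and 3.80 CPM in 15Q and 0.753 to 3.08 CPM elsewhere. The lowest choroid plexus value in 15Q was thus in replicate 2, the highest red blood cell value was in replicate 2, and the B and plasma cell value was highest in replicate 3. The choroid plexus value of 84Q replicate 2 was the highest of the 9, and the 8 members summed to 6 counts there. The part of tissue from other organs, of dissection or of library handling in the member counts was not tested.

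**Figure D4:**
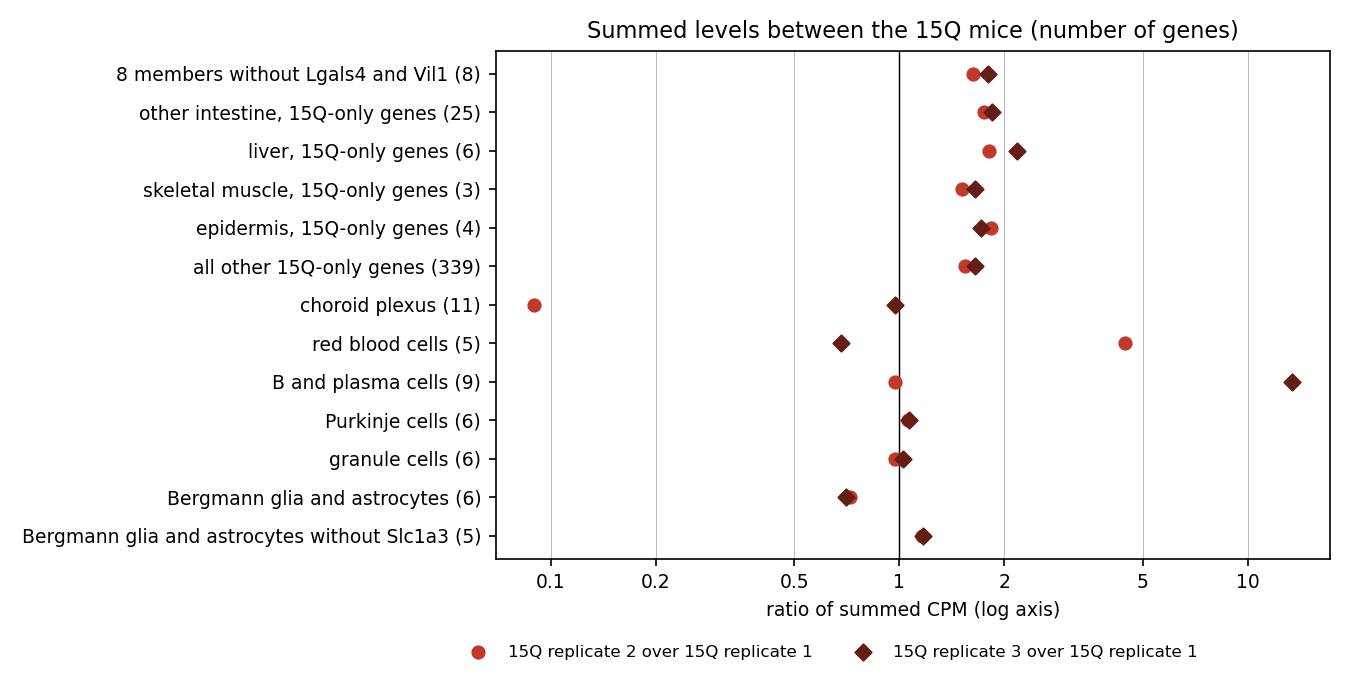
Ratio of summed CPM between 15Q mice, on a log axis, for the 8 members other than Lgals4 and Vil1, for genes found in 15Q alone (at least 4 counts in each 15Q library and at most 3 in each other) by list, and for the whole lists of choroid plexus, blood and cerebellar cells, with the number of genes in parentheses. The members, intestine, liver, muscle and epidermis lie between 1.51 and 2.18, Purkinje and granule cells lie near 1, Bergmann glia and astrocytes lie at 0.720 and 0.702 with Slc1a3 and at 1.16 and 1.17 without it, and choroid plexus, red blood cells and B and plasma cells lie between 0.0893 and 13.4.

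The genes most like the members over the 9 libraries, by Pearson correlation of log2 CPM with the mean of the members, were Gsta1, Retnla, Clca3b, Ugt2b34, Cyp2c66, Ces2c, Gm10639, Pigr, Cdh16 and Fgg, with r from 0.9987 to 0.9993. All 10 had 0 counts in each of the 6 libraries outside 15Q and counts in each 15Q library, so that the 9 points behind each r fall into separate sets, 15Q and the rest. Pigr, which moves antibodies across epithelia, had 249, 731 and 1076 counts in 15Q, more than any of the 10 members in each of the 3 libraries. Gsta1, a glutathione transferase, had 76, 224 and 368 counts, and Fgg, the fibrinogen gamma chain made by liver, had 17, 49 and 75. Among the 20 genes most alike, 0 stood on an intestine list, 3 on the liver list (Fgg, Cyp3a11 and Fgb) and 1 on the epidermis list (Dsg1a). The rest of the 20, Pigr and Gsta1 included, stood on no list. The tally thus depends on which genes were listed and does not give the tissue of these genes. The listed intestine gene highest in the order of likeness was Hnf4a, at rank 24 with r = 0.9962.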

How the data were processed

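RNA of 9 cerebella was sequenced as strand-specific paired-end reads of 150 bp. Per the study's methods and the submitters' processing notes, the authors trimmed reads (Trimmomatic 0.36), aligned them to GRCm38.p6 (HISAT2 2.2.0) and counted them per gene with featureCounts. The deposited values are unnormalized read counts for 37816 genes. The annotation and the strand setting of the counting are not given in the sources used here.

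Ensembl IDs were matched without version to GENCODE vM21, and 37681 had a symbol and exon length. The quasi-likelihood test of edgeR 4.0.16, run in R 4.3.3, was fitted to the 9 libraries together after TMM scaling. The 19353 genes that filterByExpr kept were adjusted by the method of Benjamini and Hochberg, and calls needed an adjusted p below 0.1 with a change of 1.5-fold or more. Tests are two-sided. The p-values measure the spread between the 3 mice of each group. DESeq2 1.42.0 was an alternative. CPM (counts per 1e6) used TMM-scaled totals and TPM used union exon lengths. The likeness measure used log2 CPM with a prior count of 2. Ratios of pooled counts have exact conditional binomial intervals, shares have Wilson intervals, both at 95%, and neither covers the spread between mice. The fits were tested on simulated data. Words of 31 bases were looked up in the transcripts of all genes.

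The members and lists were chosen with earlier results of these data known. Named are the 10 members, their relatives in cerebellum, and the 10 genes most like them. Of each intestine list are named the 2 genes with the highest mean CPM and up to 3 called genes with the highest 15Q mean. For lists of other organs, of which the 2 highest and up to 2 called genes could be named, the called genes are given. Fgb, Cyp3a11, Dsg1a, Slc1a3, Ighm, Igkc and the overlapping genes were named after their values were seen. Some genes that this rule covers are not reported here.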

Additional observations from a re-analysis of the deposited data

How the results depend on the processing

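Lgals4 and Vil1 were not called in 84Q+IGF-1 against 84Q under the alternatives run, nor were the other 8 members, of which nothing is read since they had 0 to 16 counts there. Without the filter on low counts, 53 other intestine genes were called lower in 84Q and 55 in 84Q+IGF-1 against 15Q (26 and 27 with it). Genes of other organs gave 44 and 51 (27 and 27). Of all 37816 genes, 2.35% and 3.15% were called lower in this setting, which tests more genes. In 84Q+IGF-1 against 84Q the numbers were 4 for intestine and 10 for other organs (0 and 0), beside 154 of all genes (0.407%). DESeq2 called 42 other intestine genes lower in 84Q+IGF-1 than in 15Q, and 1.44% of the 37816 genes. Leaving out 1 library gave 15 (without 15Q replicate 3) to 39 in 84Q and 14 (without 15Q replicate 3) to 42 in 84Q+IGF-1. In these fits 0.862% to 2.46% of all genes tested were called lower in 84Q, and 1.04% to 2.93% in 84Q+IGF-1. Where leaving out 1 library leaves 2 in a group, the spread comes from all groups. Of the 20 genes most like the members, 1 stood on an intestine list with Spearman correlation and 0 with Pearson, and none of the 20 genes was shared between the measures. The cause of these shifts was not tested, beyond the number of genes or libraries. The other 108 of the alternative values stayed within 1.5 times or the replicate spread, the summed level of the members in 15Q (47.3 to 59.4 CPM) included.

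Replicate numbers did not pair the samples, as same-number correlations of deviations lay between −0.31 and 0.079. With the replicate block, 18 and 21 other intestine genes and 22 and 25 genes of other organs were called lower than in 15Q in the 84Q and the treated mice. The shares of all genes tested were 1.16% and 1.28%. Neither Lgals4 nor Vil1 was called with the block in 84Q+IGF-1 against 84Q. Depth limits what could be compared there, since 8 of the 10 genes had 0 to 16 counts in all over the 6 libraries outside 15Q.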

Other observations

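The 344 genes found in 15Q alone (at least 4 counts in each 15Q library and at most 3 in each other) summed to 156, 244 and 260 CPM in 15Q replicates 1, 2 and 3. Of these, 222 were protein-coding, 64 were processed pseudogenes, 16 were antisense genes and 13 were lincRNA genes. Gcg, the glucagon and GLP-1 precursor of enteroendocrine cells and of some neurons of the brainstem, had 4, 9 and 12 counts in 15Q and at most 1 in any other library, and Agr2, a goblet cell protein, had 5, 10 and 10 against 0 in each of the other 6. The Paneth cell defensin Defa24 had 5, 9 and 11 counts in 15Q and 0 in the other 6, and other defensins with near-identical sequence could share these reads. Gcg, Agr2 and Defa24 were named after their values were seen. Of the 9 enteroendocrine genes with counts, Gcg was the only 1 with every 15Q library above the other 6, and Sct, the secretin gene, had 1 count in each 15Q library and 0 to 4 in the others.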
